A study of Mus musculus with 16 samples.

Results

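Transcripts of the glutathione, thioredoxin and peroxide defence families were examined in the left ventricle (LV) of mice that overexpress adenylyl cyclase 8. The members are all genes of the table whose symbol belongs to the glutathione S-transferases (Gst, Mgst), the glutathione peroxidases (Gpx), the enzymes of glutathione synthesis and reduction (Gclc, Gclm, Gss, Gsr), the peroxiredoxins with sulfiredoxin (Prdx, Srxn1), superoxide dismutases and catalase (Sod, Cat), the thioredoxin system (Txn, Txnrd, Txnip and thioredoxin-like genes), glutaredoxins (Glrx), metallothioneins (Mt1, Mt2), heme oxygenases and quinone reductases (Hmox, Nqo), or the Nfe2l factors with Keap1. The rule uses symbols and no measured value, although it was written with earlier results of these data known. The members are 64 of the 11811 genes of the table, in 17 families. TGAC8 mice carry human ADCY8 cDNA under the murine alpha-myosin heavy chain promoter, which drives it in cardiomyocytes, and the other group was wild type (WT). Both groups were 3-month-old males, and the labels give the strain background C57BL/6. RNA of the LV was sequenced in 8 TGAC8 and 8 WT libraries, and levels are given as FPKM, a fragment count scaled to the length of the transcript and the size of the library.

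These families handle reactive oxygen species. Superoxide dismutases turn superoxide into hydrogen peroxide, which catalase, glutathione peroxidases and peroxiredoxins remove. Peroxidases of the glutathione branch draw on reduced glutathione, which glutamate-cysteine ligase (Gclc, Gclm) and glutathione synthetase build and glutathione reductase regenerates, and peroxiredoxins draw on thioredoxin, which thioredoxin reductases regenerate. The factor NRF2, the product of Nfe2l2, is held in check by Keap1 and acts through antioxidant response elements near many of these genes, and metallothioneins bind zinc and copper and are switched on through metal response elements. In the heart, which makes much of its energy in mitochondria, separate cytosolic, mitochondrial and secreted forms of these enzymes are present.

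Promoters are shown first, for members whose levels are described below and whose window of 250 bases before to 50 bases after the RefSeq start (GRCm38.p6, the mm10 build) held the letters of such an element. A promoter was matched for 55 of the 64 members. Both strands were searched for the antioxidant response element letters TGACNNNGC, which stood in 13 of the 55 members and in 12.4% of 32851 promoters in the table, or in 14.5% of promoters of tested genes. They stood in 6 of 15 members with a promoter that were higher in TGAC8 (Gclm, Mt2, Nfe2l2, Prdx1, Srxn1, Txnrd1), 1 of 5 that were lower (Gstm7) and 6 of 35 that were not called. A match is a description of letters, not of a bound site. For each element here and below, a member counted if any of its promoters matched, and some members have several promoters. The shares of promoters count each promoter singly, so member counts and these shares are not alike in unit. Examples are printed with the matched letters in capitals, 3 of them from members higher in TGAC8 and Gstm7 from a member lower in TGAC8. The windows of 60 bases lie at chr3:122245397-122245456 (plus strand), chr4:116685440-116685499 (plus strand), chr10:82859088-82859147 (plus strand) and chr3:107931710-107931769 (minus strand). In the first 3 windows the letters read as the reverse complement of the element. At Prdx1, and also at Mt2, the element overlaps the AP-1 letters TGANTCA. These letters were in 8 of the 55 members and in 7.81% of all promoters, or in 4.97% of promoters of tested genes.
Gclm: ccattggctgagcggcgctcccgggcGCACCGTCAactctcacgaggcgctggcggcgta
Prdx1: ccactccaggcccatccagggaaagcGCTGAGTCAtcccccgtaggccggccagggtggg
Txnrd1: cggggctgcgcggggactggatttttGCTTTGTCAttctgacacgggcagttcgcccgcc
Gstm7: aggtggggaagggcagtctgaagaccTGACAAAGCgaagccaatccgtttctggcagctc

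The metallothionein promoters are shown because Mt2 had the largest fold change of the 64 members. The metal response element letters TGCACNC or TGCGCNC, on both strands, were found 3 times in the Mt1 window and 4 times in the Mt2 window. At least 3 matches were found in 1.97% of all promoters and at least 1 in 25.7%, or in 35.6% of promoters of tested genes. Of the 55 members 21 held at least 1 match, and Gclm held 3, as many as Mt1. The 250 bases before each start are printed, from chr8:94178839-94179088 and chr8:94172368-94172617, both on the plus strand, with matches in capitals. The stretch of Mt1 holds 1 of its 3 matches and that of Mt2 holds 3 of its 4, and the others start within the 50 bases after the start, which are not printed. The cyclic AMP response element letters TGACGTCA were in 1 of the 55 members, Txnl4b, and in 1.79% of all promoters, or in 3.03% of promoters of tested genes.
Mt1: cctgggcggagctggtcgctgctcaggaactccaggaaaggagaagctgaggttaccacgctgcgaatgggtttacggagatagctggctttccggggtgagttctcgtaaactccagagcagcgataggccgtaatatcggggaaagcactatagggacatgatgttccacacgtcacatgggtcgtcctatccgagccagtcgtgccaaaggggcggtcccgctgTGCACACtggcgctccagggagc
Mt2: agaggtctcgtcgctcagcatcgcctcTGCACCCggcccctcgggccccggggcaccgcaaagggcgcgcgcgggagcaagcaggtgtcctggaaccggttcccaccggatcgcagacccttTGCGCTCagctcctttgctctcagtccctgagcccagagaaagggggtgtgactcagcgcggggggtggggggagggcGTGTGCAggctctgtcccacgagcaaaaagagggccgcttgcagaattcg

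All 64 members averaged 0.5 FPKM or more across the 16 libraries, the filter used here, and were tested, their group means running between 1.07 and 211 FPKM. With limma on log2(FPKM + 0.1) and Benjamini-Hochberg adjustment over all 11544 tested genes, 17 members were higher in TGAC8 (26.6%), 5 were lower (7.81%) and 42 were not called. Of all tested genes 20.9% were higher and 4.65% lower. The median log2 fold change was 0.12 over the members and 0.12 over all tested genes. Because the median of the whole table lay above 0, every member was also examined after geometric scaling, in which a library is divided by the median of its gene ratios to the geometric means over libraries. After it the median of all tested genes was 0.0074 and that of the members 0.0016, and 12 members were higher (18.8%) and 15 lower (23.4%), against 9.74% and 10.8% of all tested genes. On both scales 12 members were higher and 5 lower, against 9.74% and 4.64% of all tested genes. The libraries of the genotypes did not overlap in 8 members, Gclm, Gpx1, Gpx3, Prdx1, Txnrd1, Nfe2l1, Mt1 and Mt2, each TGAC8 library lying above each WT library (12.5% of members, against 4.79% of all tested genes). No member had each TGAC8 library below each WT library, which held for 131 of the 11544 tested genes. Which scale is right for these libraries cannot be read from the table, so a call that holds on 1 scale only is named as such. The counts by family below are to be read against these shares of all tested genes.

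**Figure D1:**
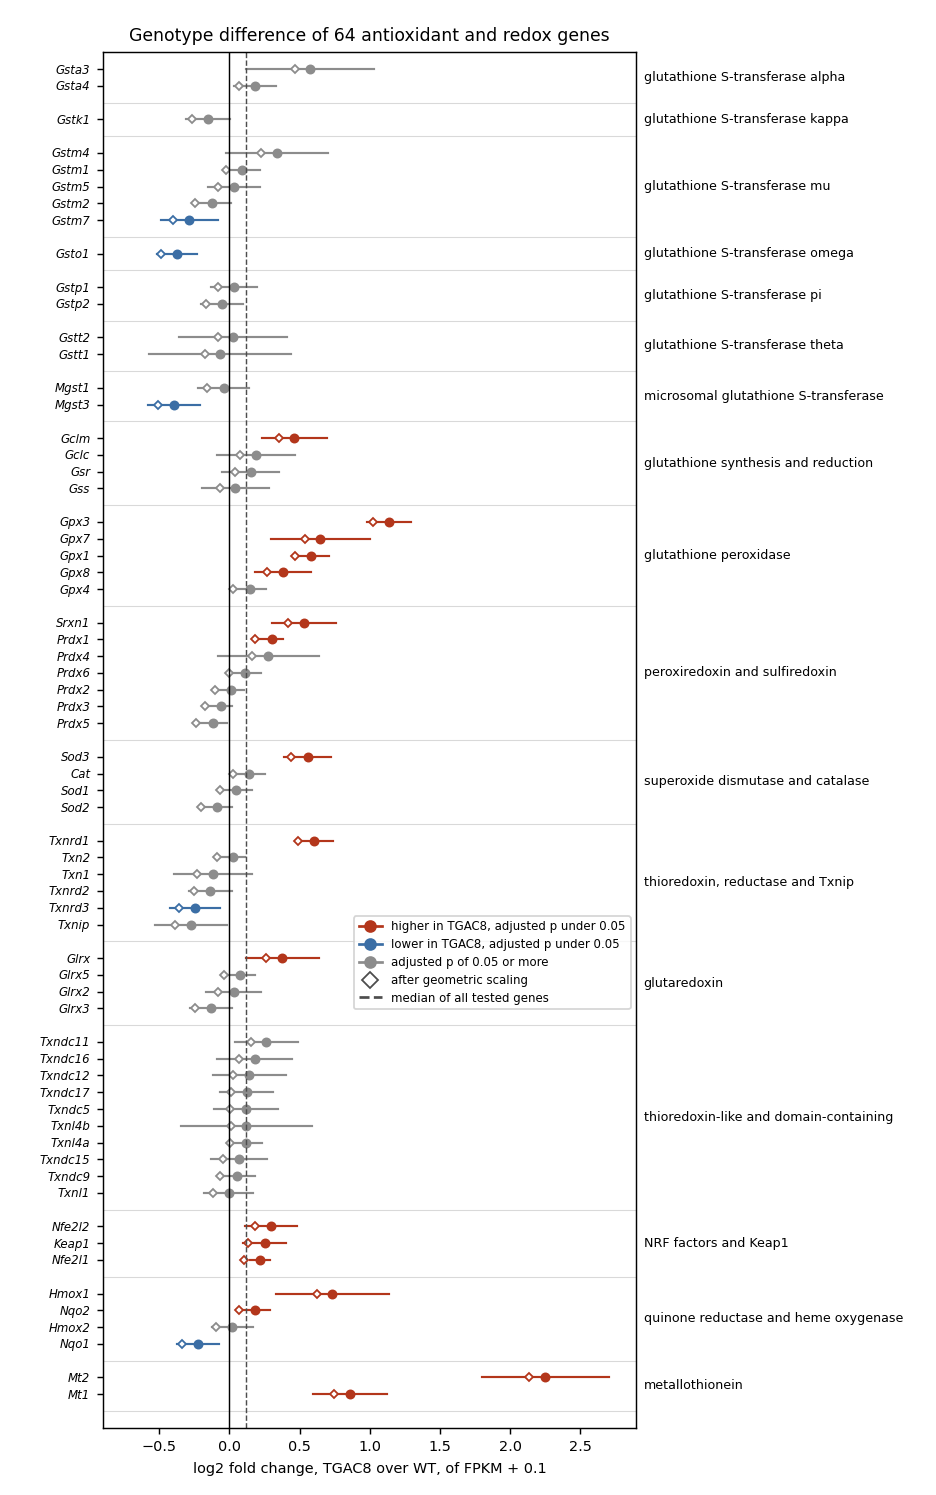
Log2 fold change, TGAC8 over WT, of log2(FPKM + 0.1) for the 64 members grouped by family, with 95% intervals from limma (points and lines) and the value after geometric scaling (open diamonds). Red is higher and blue lower in TGAC8 at an adjusted p under 0.05 as deposited, grey is not called, and the dashed line marks the median of all tested genes at 0.12. Most grey points lie near that line, and Mt2 lies farthest to the right at 2.25.

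Among the genes listed as markers of other cells of the ventricle, 11 of 12 fibroblast markers and 10 of 12 macrophage and monocyte markers were higher in TGAC8. The fibroblast markers summed to 277 to 483 FPKM in TGAC8 libraries and 218 to 258 FPKM in WT libraries, and the macrophage markers to 150 to 217 FPKM in TGAC8 libraries and 110 to 148 FPKM in WT libraries. Of 12 endothelial markers 0 were called by limma, with 1 higher at an unadjusted p under 0.05, and 1 of 11 cardiomyocyte markers was higher and 4 were lower, or 1 and 7 after geometric scaling. Of 10 smooth muscle and pericyte markers 3 were higher, and these markers summed to 211 to 287 FPKM in TGAC8 libraries and 187 to 215 FPKM in WT libraries. After geometric scaling 11 fibroblast, 8 macrophage and 2 smooth muscle and pericyte markers were higher. The members include genes expressed in such cells, and the part of the change in cell composition in the results was not tested. In bulk tissue, fewer cells of a type and less RNA per cell cannot be told apart. The human ADCY8 transcript was at 411 to 602 FPKM in the TGAC8 libraries, was listed at 0 in 7 WT libraries and read 0.345 FPKM in WT library 2 (exact 2-sided permutation test, p = 0.000155).

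Among the glutathione peroxidases 4 of 5 members were higher in TGAC8 on both scales. Gpx3, which encodes the secreted plasma form of the enzyme, measured 72.2 at the lowest, 91.0 at the median and 103 FPKM at the highest in TGAC8 libraries, against 35.1, 40.0 and 46.0 FPKM in WT libraries. The log2 fold change was 1.14 (SE 0.075, adjusted p = 8.93e-09 by limma). Gpx1, the abundant selenium-dependent form of the cytosol and mitochondria, measured 28.1, 33.9 and 40.4 FPKM in TGAC8 libraries and 20.9, 22.2 and 23.9 FPKM in WT libraries, with a log2 fold change of 0.58 (SE 0.060, adjusted p = 2.31e-06 by limma). In neither gene did the genotypes overlap. Gpx7 and Gpx8 are peroxidases of the endoplasmic reticulum that lack selenium. They averaged 1.99 ± 0.46 and 12.1 ± 1.0 FPKM in TGAC8, against 1.254 ± 0.37 and 9.38 ± 1.63 FPKM in WT (SD, n = 8 each). Both were higher in TGAC8, by 0.65 and 0.38 on the log2 scale, with adjusted p-values of 0.00917 and 0.00651 by limma, and their libraries overlapped. Gpx8 lies on the opposite strand of Cdc20b, and the sources used here do not say whether counting used strand. In all 21 members overlap a gene on the opposite strand, among the called ones also Mt2 (Gm45774), Txnrd1 (Gm38560 and Gm47073), Gclm (Gm17494) and Nqo2 (Serpinb6a). Gpx4, which removes peroxides of membrane lipids, was the highest of the 5 in WT at 79.8 ± 5.8 FPKM and stood at 88.3 ± 7.3 FPKM in TGAC8. Its log2 fold change of 0.15 missed the threshold (95% interval 0.028 to 0.26, adjusted p = 0.064 by limma). The family sum was 226 ± 19 FPKM in TGAC8 and 153 ± 8.9 FPKM in WT.

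**Figure D2:**
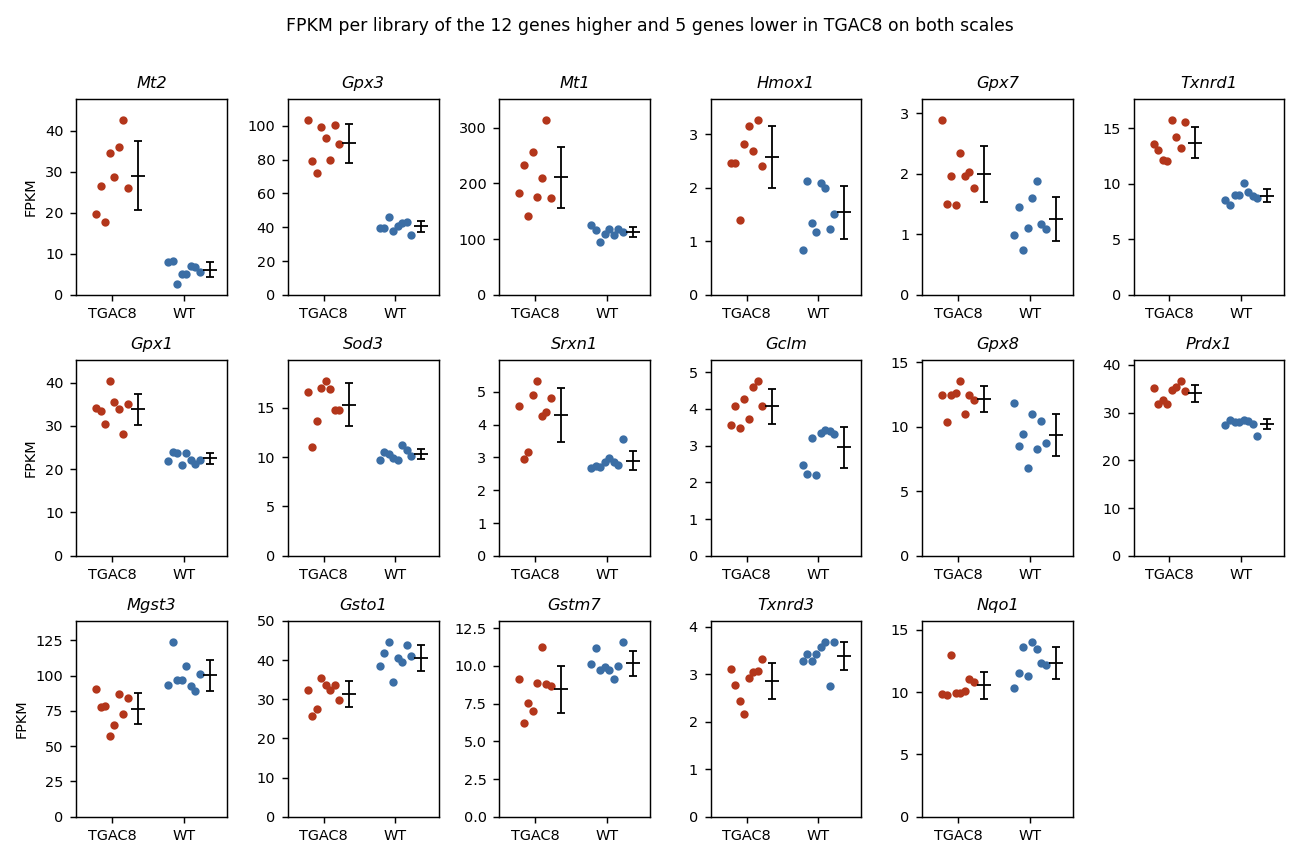
FPKM of each library for the 12 members higher and the 5 members lower in TGAC8 on both scales. Each dot is 1 library, TGAC8 left of WT, the bar shows mean and SD of 8, and each y axis starts at 0. Mt2, Gpx3, Mt1, Txnrd1, Gpx1, Gclm and Prdx1 show no overlap between the genotypes, and each of the 5 lower members does overlap.

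Within the family the shares differed without any use of scaling between libraries. Gpx3 made up 37.0 to 44.2% of the summed FPKM of the 5 glutathione peroxidases in TGAC8 libraries and 24.4 to 28.6% in WT libraries. Gpx4 made up 35.9 to 40.7% in TGAC8 libraries and 50.03 to 54.6% in WT libraries. The ratio of Gpx3 to Gpx4 averaged 1.01 ± 0.11 in TGAC8 and 0.509 ± 0.047 in WT (SD, n = 8 each). These shares and ratios were described with no test.

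**Figure D3:**
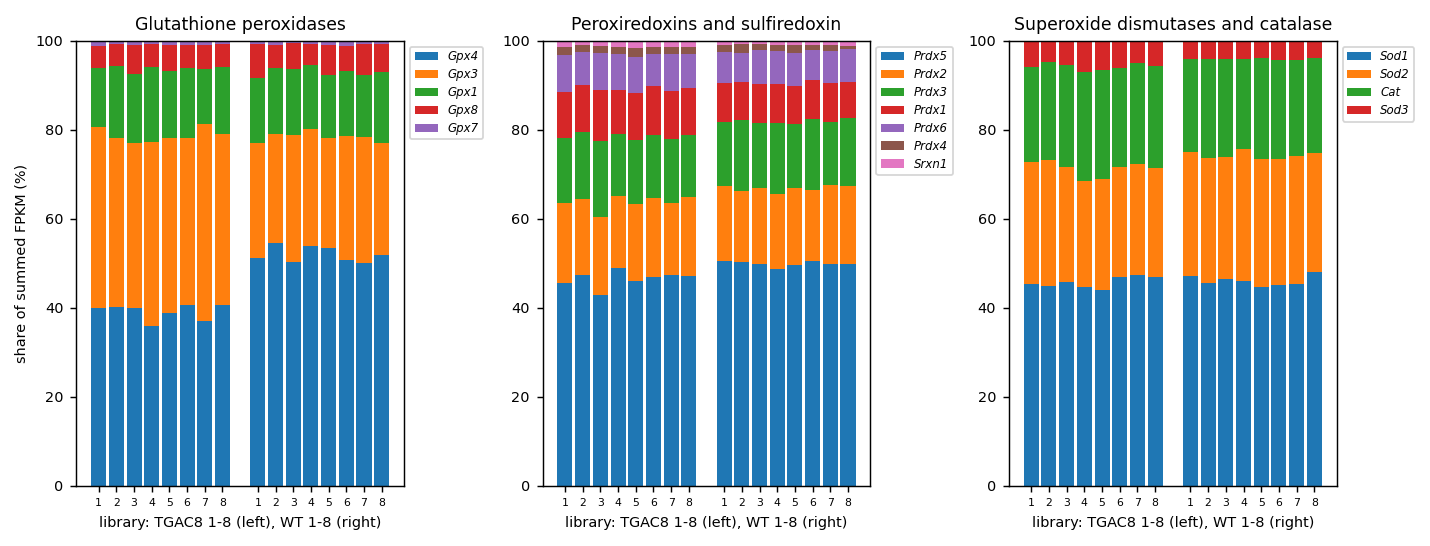
Share of summed FPKM (%) taken by each member within 3 families, one stacked bar per library, TGAC8 libraries left of WT libraries. Gpx3 takes a larger share and Gpx4 a smaller share of the glutathione peroxidases in each TGAC8 library than in each WT library, and Prdx1 and Sod3 take larger shares of their families.

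Of the 4 genes for glutathione synthesis and reduction, Gclm, the modifier subunit of glutamate-cysteine ligase, was higher in TGAC8 on both scales. Its levels were 3.47, 4.07 and 4.76 FPKM at the lowest, median and highest in TGAC8 libraries and 2.19, 3.27 and 3.41 FPKM in WT libraries, which did not overlap, with a log2 fold change of 0.46 (SE 0.11, adjusted p = 0.00483 by limma). Gclc, the catalytic subunit, averaged 1.68 ± 0.38 FPKM in TGAC8 and 1.45 ± 0.21 FPKM in WT and was not called (log2 fold change 0.19, 95% interval -0.091 to 0.47). Gss, which joins glycine to complete glutathione, and Gsr, which reduces its oxidized form, had log2 fold changes of 0.043 and 0.15 and were not called. The Gss gene overlaps Acss2 on the opposite strand.

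The glutathione S-transferases, which attach glutathione to reactive compounds, had 0 members higher in TGAC8 among 15 genes on either scale by limma, and 2 were higher at an unadjusted p under 0.05, which are Gsta3 and Gsta4. As deposited 3 were lower, by the rank-sum test also 3, and after geometric scaling 5 were lower, and the median log2 fold change was -0.041. Of all tested genes 20.9% were higher and 4.65% lower as deposited, and 9.74% and 10.8% after geometric scaling. Gsto1, an omega-class enzyme, measured 25.6, 32.3 and 35.4 FPKM at the lowest, median and highest in TGAC8 libraries and 34.4, 40.8 and 44.6 FPKM in WT libraries. It fell by 0.37 on the log2 scale (SE 0.068, adjusted p = 0.000642 by limma), with 7 TGAC8 libraries below the lowest WT library. Gsto1 overlaps Cfap43 on the opposite strand. Mgst3, a microsomal form, averaged 76.7 ± 11.2 FPKM in TGAC8 and 100.2 ± 11.01 FPKM in WT and fell by 0.39 in log2 units (limma, adjusted p = 0.00361), again with 7 TGAC8 libraries below the lowest WT library. Gstm7 averaged 8.44 ± 1.55 FPKM in TGAC8 and 10.2 ± 0.8 FPKM in WT (log2 fold change -0.28, adjusted p = 0.0363 by limma), a call lost with the replicate block and when TGAC8 library 2, 3 or 4 or WT library 1, 2, 4 or 8 was left out (adjusted p up to 0.071 by limma). Gstm1, the most abundant mu-class transcript, stood at 69.1 ± 7.1 FPKM in TGAC8 and 64.5 ± 3.7 FPKM in WT and was not called. Gstk1, which is mitochondrial, and Gstm2 were lower only after geometric scaling. The other 7 members, Gstm4, Gstm5, Gstp1, Gstp2, Gstt1, Gstt2 and Mgst1, had log2 fold changes between -0.066 and 0.34 and were not called. Gsta3 had the widest difference of the uncalled transferases at 0.57 (95% interval 0.12 to 1.03, adjusted p = 0.0604 by limma). Of the 10 other settings that kept all libraries, Gsta3 passed only with the replicate block (adjusted p = 0.0488 by limma). After geometric scaling its adjusted p was 0.161 by limma. The mu-class genes are relatives of each other, as are Gstp1 and Gstp2. Reads can be shared between relatives, and how far they were was not examined.

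In the peroxiredoxin family Prdx1 and Srxn1 were higher in TGAC8 on both scales and no member was lower on both. Prdx1, a cytosolic peroxiredoxin, measured 31.8, 34.6 and 36.7 FPKM at the lowest, median and highest in TGAC8 libraries, against 25.1, 28.0 and 28.5 FPKM in WT libraries, with no overlap and a log2 fold change of 0.30 (SE 0.040, adjusted p = 3.08e-05 by limma). Srxn1, which repairs peroxiredoxins inactivated by excess peroxide, averaged 4.30 ± 0.83 FPKM in TGAC8 and 2.9 ± 0.29 FPKM in WT, a difference of 0.53 in log2 units (limma, adjusted p = 0.00185). The mitochondrial Prdx3 and Prdx5 averaged 46.8 ± 1.7 and 149 ± 12 FPKM in TGAC8, against 48.8 ± 2.7 and 161 ± 4.2 FPKM in WT, and were not called as deposited. Prdx2, a cytosolic form, was at 55.1 ± 3.9 FPKM in TGAC8 and 54.6 ± 1.8 FPKM in WT. After geometric scaling Prdx2, Prdx3 and Prdx5 were all lower in TGAC8, with log2 fold changes of -0.11, -0.18 and -0.24. Prdx4, of the endoplasmic reticulum, and Prdx6, which also acts on phospholipids, had log2 fold changes of 0.28 and 0.11 and were not called. Prdx5 overlaps Trmt112 on the opposite strand and Prdx2 overlaps Junb and Rnaseh2a. The ratio of Prdx1 to Prdx3 ran between 0.678 and 0.766 in TGAC8 libraries and between 0.519 and 0.603 in WT libraries.

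Of the superoxide dismutases and catalase, Sod3, the extracellular dismutase, was higher in TGAC8 on both scales. It measured 11.1, 15.7 and 17.7 FPKM at the lowest, median and highest in TGAC8 libraries, against 9.73, 10.2 and 11.2 FPKM in WT libraries, so that 7 TGAC8 libraries lay above the highest WT library, and its log2 fold change was 0.56 (SE 0.079, adjusted p = 6.32e-05 by limma). Sod1, the cytosolic form, averaged 120 ± 11 FPKM in TGAC8 and 116 ± 5.4 FPKM in WT. Sod2, the mitochondrial form, averaged 66.9 ± 6.0 FPKM in TGAC8 and 70.8 ± 2.1 FPKM in WT, and was lower only after geometric scaling (log2 fold change -0.20). Catalase, Cat, averaged 60.1 ± 5.2 FPKM in TGAC8 and 54.4 ± 3.2 FPKM in WT and was not called (log2 fold change 0.14, 95% interval 0.024 to 0.25). Sod3 over Sod2 averaged 0.230 ± 0.039 in TGAC8 and 0.145 ± 0.007 in WT.

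Within the thioredoxin system the cytosolic reductase and its relatives differed. Txnrd1, the cytosolic reductase, measured 12.1, 13.4 and 15.7 FPKM at the lowest, median and highest in TGAC8 libraries, against 8.08, 8.94 and 10.04 FPKM in WT libraries, with no overlap and a log2 fold change of 0.61 (SE 0.062, adjusted p = 1.83e-06 by limma). Txnrd2, the mitochondrial reductase, averaged 5.97 ± 0.67 FPKM in TGAC8 and 6.54 ± 0.50 FPKM in WT and was lower only after geometric scaling. Txnrd1 over Txnrd2 averaged 2.31 ± 0.23 in TGAC8 and 1.37 ± 0.15 in WT, and the libraries did not overlap in it. Txnrd3 averaged 2.86 ± 0.38 FPKM in TGAC8 and 3.38 ± 0.30 FPKM in WT (log2 fold change -0.24, adjusted p = 0.0446 by limma), a call lost with the replicate block and without any single library other than TGAC8 libraries 1, 6, 7 and 8 and WT library 7 (adjusted p up to 0.0818 by limma). The substrates themselves, Txn1 of the cytosol and Txn2 of the mitochondria, averaged 8.58 ± 1.88 and 57.3 ± 3.7 FPKM in TGAC8 and 9.23 ± 1.66 and 56.1 ± 1.8 FPKM in WT, and neither was called as deposited. Txn2 was lower only after geometric scaling (log2 fold change -0.088). Txnip, a thioredoxin-binding inhibitor, averaged 50.1 ± 5.5 FPKM in TGAC8 and 61.6 ± 13.5 FPKM in WT and was lower only after geometric scaling.

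The glutaredoxins, which use glutathione to reduce disulfides, were not called except Glrx. It averaged 8.32 ± 1.41 FPKM in TGAC8 and 6.41 ± 1.19 FPKM in WT, higher in TGAC8 as deposited (log2 fold change 0.38, adjusted p = 0.033 by limma) and not after geometric scaling (adjusted p = 0.157 by limma). That call was also lost without TGAC8 library 1, 3, 5, 7 or 8 or WT library 2, 3, 5 or 7 (adjusted p up to 0.0663 by limma). Glrx3 was lower only after geometric scaling, and the mitochondrial Glrx2 and Glrx5 were called on neither scale. The 10 thioredoxin-like and thioredoxin-domain genes had log2 fold changes between -0.00435 (Txnl1) and 0.26 (Txndc11), and 0 were called on either scale by limma or by the rank-sum test, with 2 higher at an unadjusted p under 0.05. They are Txndc5, Txndc9, Txndc11, Txndc12, Txndc15, Txndc16, Txndc17, Txnl1, Txnl4a and Txnl4b. Under the replicate block together with geometric scaling Txnl1 was called as lower by limma. The mitochondrial members Prdx3, Prdx5, Sod2, Txn2, Txnrd2, Glrx2, Glrx5 and Gstk1 are a grouping chosen after their values were seen. The grouping is not a full list of members with mitochondrial forms. It leaves out Gpx1, given above as a form of the cytosol and mitochondria, which was higher on both scales. It also leaves out Gsr, which the study calls a mitochondrial glutathione reductase and which was called on neither scale. As deposited 0 of the 8 were called by limma, beside 20.9% of all tested genes higher and 4.65% lower. Of the 8, 1 was lower at an unadjusted p under 0.05 and by the rank-sum test (Prdx5). After geometric scaling 6 were lower, beside 10.8% of all tested genes. After quantile normalization Gstk1, Sod2 and Txnrd2 were lower, while Prdx3, Prdx5 and Txn2 were not called.

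The Nfe2l factors and Keap1 were higher in TGAC8 as deposited in 3 of 3 members and in none after geometric scaling. Nfe2l1, a relative of NRF2, averaged 73.6 ± 3.6 FPKM in TGAC8 and 63.1 ± 1.3 FPKM in WT, did not overlap, and differed by 0.22 in log2 units (limma, adjusted p = 0.00016), or 0.10 after geometric scaling (adjusted p = 0.0513 by limma). Nfe2l2 averaged 15.7 ± 2.6 FPKM in TGAC8 and 12.6 ± 1.1 FPKM in WT and Keap1 7.35 ± 0.68 FPKM in TGAC8 and 6.17 ± 0.68 FPKM in WT. Each had an adjusted p of 0.0185 by limma as deposited, and Keap1 overlaps Gm16754 on the opposite strand. Keap1 over Nfe2l2 averaged 0.474 ± 0.051 in TGAC8 and 0.490 ± 0.055 in WT.

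Hmox1, the inducible heme oxygenase, was higher in TGAC8 on both scales, at 1.39, 2.57 and 3.26 FPKM at the lowest, median and highest in TGAC8 libraries, against 0.829, 1.42 and 2.13 FPKM in WT libraries (log2 fold change 0.73, SE 0.19, adjusted p = 0.0092 by limma). Its constitutive relative Hmox2 averaged 30.1 ± 3.5 FPKM in TGAC8 and 29.5 ± 2.1 FPKM in WT. Nqo1, which reduces quinones and is a commonly used NRF2 target, averaged 10.6 ± 1.1 FPKM in TGAC8 and 12.3 ± 1.3 FPKM in WT, lower on both scales (log2 fold change -0.22, adjusted p = 0.0303 by limma), a call lost without TGAC8 library 1, 4, 5 or 6 or WT library 3, 5 or 6 (adjusted p up to 0.0596 by limma). Nqo2 was higher as deposited only, at 5.95 ± 0.41 FPKM in TGAC8 and 5.23 ± 0.30 FPKM in WT.

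Both metallothioneins were higher in TGAC8 on both scales, and their sum was 240 ± 62 FPKM in TGAC8 and 119 ± 10.5 FPKM in WT. Mt1 measured 141, 197 and 314 FPKM at the lowest, median and highest in TGAC8 libraries, against 95.4, 114 and 126 FPKM in WT libraries, and Mt2 measured 17.7, 27.6 and 42.6 FPKM in TGAC8 libraries, against 2.71, 6.10 and 8.28 FPKM in WT libraries. No library overlapped in either. The log2 fold changes were 0.86 (SE 0.12, adjusted p = 7.74e-05 by limma) and 2.25 (SE 0.21, adjusted p = 8.73e-07 by limma). Mt2 over Mt1 ran between 0.107 and 0.172 in TGAC8 libraries and between 0.0283 and 0.0715 in WT libraries. Both genes are short relatives that lie next to each other on chromosome 8, and reads can be shared between them.

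**Figure D4:**
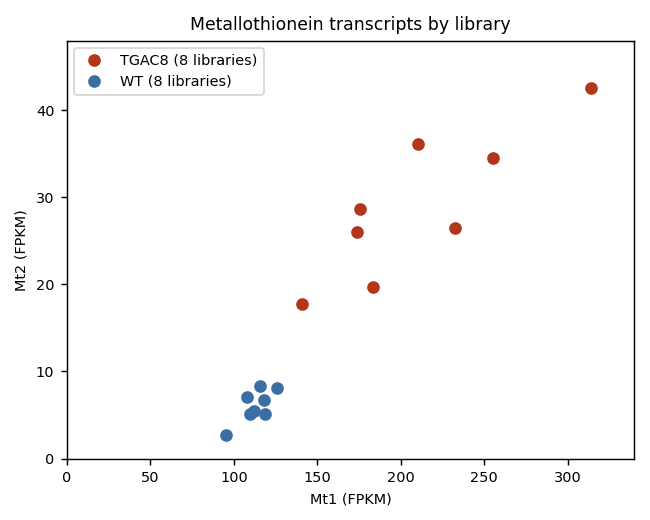
Mt1 (x axis, FPKM) against Mt2 (y axis, FPKM), 1 dot per library, TGAC8 in red and WT in blue. The 8 TGAC8 libraries lie above and to the right of each WT library, and Mt2 is at 17.7 FPKM or more in each TGAC8 library and at 8.28 FPKM or less in each WT library.

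Pairs of partner genes were followed across the 8 libraries of each genotype, in 12 relations. The pairs were Mt1 and Mt2, Gclc and Gclm, Txn1 and Txnrd1, Hmox1 and Srxn1, Gpx7 and Gpx8, and Prdx1 and Prdx6. By Pearson's r with exact permutation of pairings, 3 relations had an unadjusted p under 0.05 and 0 passed Benjamini-Hochberg adjustment, and by Spearman's rho 1 and 0. Mt1 and Mt2 had r = 0.84 and rho = 0.79 in TGAC8 (exact permutation p = 0.0105 and 0.0279, adjusted 0.126 and 0.335), and without the 2 libraries farthest from the median of Mt1 r was 0.53. In WT Mt1 and Mt2 had r = 0.80 and rho = 0.48 (exact permutation p = 0.0268 and 0.243, adjusted 0.152 and 0.601). Without the 2 WT libraries farthest from the median of Mt1, r was 0.044. Leaving out such libraries narrows the range of Mt1, so the lower r cannot show what the relation rests on in either genotype. How far reads shared between Mt1 and Mt2 add to r was not tested. Gclc and Gclm had r = 0.73 in WT (exact permutation p = 0.0380, adjusted 0.152). In TGAC8 r of Gclc and Gclm was 0.10 (exact permutation p = 0.806).

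Of the genes around the families, 8 pathway lists were counted, to be read against the 20.9% of all tested genes that were higher and the 4.65% that were lower. The lists overlap. G6pdx and Pgd count both as NRF2 targets and for NADPH supply, and Abcc4 both as an NRF2 target and for turnover. Listed genes that were absent from the data or below the filter, such as Slc7a11, are not in the counts. Of 17 genes for cysteine and glutathione turnover, 8 were higher and 1 lower. Cdo1, which oxidizes cysteine, averaged 5.31 ± 1.38 FPKM in TGAC8 and 0.370 ± 0.210 FPKM in WT, without overlap (log2 fold change 3.66). Anpep, an aminopeptidase, was higher by 0.65 in log2 units, and Ggct, which cleaves gamma-glutamyl peptides, averaged 5.03 ± 1.37 FPKM in TGAC8 and 6.78 ± 1.2 FPKM in WT. Of 17 genes for NADPH supply, 3 were higher and 3 lower. Nnt, the mitochondrial transhydrogenase that makes NADPH, averaged 39.8 ± 2.2 FPKM in TGAC8 and 56.9 ± 1.7 FPKM in WT, and Idh2, a mitochondrial isocitrate dehydrogenase, 445 ± 34 FPKM in TGAC8 and 592 ± 23 FPKM in WT, both without overlap. Mthfd2, a mitochondrial folate enzyme, averaged 1.27 ± 0.36 FPKM in TGAC8 and 0.665 ± 0.281 FPKM in WT (log2 fold change 0.91). G6pdx, the first enzyme of the pentose phosphate pathway, was higher at 1.47 ± 0.20 FPKM in TGAC8 and 1.03 ± 0.23 FPKM in WT. Of 16 genes outside the families that were listed as glutathione-using, 4 were higher and 1 lower. The 4 include Msrb1 and Msrb3, methionine sulfoxide reductases that are known to draw on thioredoxin rather than glutathione, and Msrb1 averaged 38.9 ± 3.8 FPKM in TGAC8 and 25.6 ± 2.5 FPKM in WT without overlap. Clic1 and Clic5, proteins with a fold like that of the glutathione S-transferases, had log2 fold changes of 0.39 and -0.35. Of 17 genes that make superoxide or peroxide 5 were higher and 0 lower by limma, also at an unadjusted p under 0.05, among them Ncf1 and Cybb, parts of the phagocyte oxidase, with log2 fold changes of 0.78 and 0.58. Of 17 metal handling genes 6 were higher and 0 lower by limma, with 1 lower at an unadjusted p under 0.05. Atox1, a copper chaperone, averaged 25.1 ± 2.7 FPKM in TGAC8 and 18.8 ± 4.5 FPKM in WT (log2 fold change 0.45) and was not called after geometric scaling. Slc39a1, a zinc importer, averaged 11.6 ± 0.8 FPKM in TGAC8 and 8.67 ± 0.64 FPKM in WT, without overlap. Of 10 genes for selenoprotein synthesis 1 was higher, Secisbp2, which binds the selenocysteine signal of messenger RNA (log2 fold change 0.54), and 0 were lower by limma, also at an unadjusted p under 0.05. Of 25 NRF2 targets outside the families 10 were higher and 1 lower, with log2 fold changes of 0.95 for Akr1b8, 0.63 for Ephx1 and -0.16 for Ephx2. Of 12 NRF2 regulators 3 were higher and 1 lower, with log2 fold changes of 0.45 for Sesn3, 0.34 for Mafk and -0.59 for Sesn1. The median log2 fold changes of these lists ran between -0.0094 for the glutathione-using genes and 0.30 for cysteine and glutathione turnover, beside 0.12 for all tested genes. After geometric scaling the counts were 3 higher and 3 lower for turnover, 2 and 3 for NADPH supply, 3 and 4 for the glutathione-using genes, 4 and 0 for the sources of superoxide and peroxide, 3 and 1 for metal handling, 1 and 0 for selenoprotein synthesis, 5 and 3 for the NRF2 targets and 2 and 1 for the NRF2 regulators, beside 9.74% and 10.8% of all tested genes.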

How the data were processed

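RNA of 16 left ventricles was measured in 8 TGAC8 and 8 WT libraries. According to the study, a stranded total RNA kit was used and reads were aligned to mm10 with the human ADCY8 sequence added. The submitters' processing notes name TopHat2 2.1.1 and Cufflinks 2.1.1. The authors computed the deposited FPKM per library, which divide fragments by transcript length and mapped fragments. Columns with the authors' own comparison (levels per genotype, log2 fold changes, p-values and calls) were not used. The number of other per-sample columns was 0. Depth cannot be read from FPKM, so precision came from the spread between libraries. The labels number the libraries of a genotype without naming animals, while the study's methods describe RNA from 8 animals of each genotype, so each library was taken as 1 mouse.

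Of 11811 genes, the 11544 averaging 0.5 FPKM or more entered a 2-sided limma test (limma 3.58.1, R 4.3.3) of log2(FPKM + 0.1) using a variance trend, with p-values adjusted by Benjamini-Hochberg at 0.05. The pseudocount makes fold changes of low genes too small. The fit was tested on simulated data. Members, lists and grouping were chosen with earlier results of these data known. Every member is named by its symbol, and called members and those averaging 50 FPKM or more in a genotype are given values. Up to 4 genes of a list are named, those with the largest and smallest log2 fold changes among called genes averaging 1 FPKM or more in the higher genotype. Alternatives were another pseudocount, filter, scaling, variance model, test and a replicate block, and leaving out each library. Positions are from GENCODE vM21 and promoters from RefSeq.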

Additional observations from a re-analysis of the deposited data

Results flagged for a closer look

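Of 172 sets of 8 libraries examined (the members, the named list genes and the transgene in each genotype), 13 had a library whose distance to the next exceeded Dixon's 95% critical share of the range of its genotype. Chance flags about 1 in 20 sets. Prdx1 read 25.1 FPKM in WT library 8, where the next value was 27.4 FPKM. Prdx5 read 122 FPKM in TGAC8 library 3. Srxn1 read 3.56 FPKM and Sod1 128 FPKM in WT library 8, each above the rest of WT. Txnrd3 read 2.75 FPKM in WT library 7. In TGAC8 library 3 Hmox1 read 1.39 FPKM and Txndc9 6.11 FPKM, below the other TGAC8 libraries, and Nqo1 read 13.02 FPKM, above them. In TGAC8 library 5 Txndc16 read 4.73 FPKM and Mafk 8.04 FPKM. Ggct read 8.14 FPKM in TGAC8 library 1 and Msrb1 20.1 FPKM in WT library 1. The human ADCY8 transcript read 0.345 FPKM in WT library 2 and 0 in the other WT libraries. Left out in turn, none of these libraries ended the call of Prdx1, Srxn1 or Hmox1.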

How the results depend on the processing

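With 8 libraries a genotype, 18 of the 22 called members were called in each of the 16 fits that left out 1 library, and 14 of 22 under each of the other 10 settings. Calls of all genes ran from 2527 to 3135 over those 16 fits, members higher from 16 to 19 and members lower from 2 to 5, against 2954, 17 and 5. Of the members not called as deposited, Gsta3 and Gpx4 passed in 3 of these fits, Gsta4 in 2 and Cat, Gstm1, Txnip and Txndc11 in 1. Txnrd3 was called in 5, Glrx in 7, and Gstm7 and Nqo1 in 9 of them. Library numbers do not pair the genotypes (correlations of deviations between -0.062 and 0.0067). With the replicate block, members higher were 15 and members lower 3, and under the replicate block together with geometric scaling these numbers were 11 and 13, with 1942 of all genes called. The block ended the calls of Gstm7, Txnrd3, Glrx, Nfe2l2 and Nqo2 and added Gsta3. Members lower were 15 after geometric scaling and 10 after quantile normalization. Of all genes 2417 were higher and 537 lower as deposited, 1124 and 1244 after geometric scaling, and 1057 and 1054 after quantile normalization, and the cause was not tested. Leaving out WT libraries other than library 2, or TGAC8 libraries, was chosen after seeing the data. The number of relations between partner genes that passed adjustment was 0 in each setting run.

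Reversed directions were found only among members not called as deposited. Log2 fold changes with reversed sign after geometric scaling, also with the replicate block, were Txndc9 -0.063, Glrx2 -0.083, Prdx6 -0.0012, Gss -0.069, Gstm5 -0.080, Gstm1 -0.022, Prdx2 -0.11, Gstt2 -0.079, Glrx5 -0.037, Txndc15 -0.045, Txn2 -0.088, Hmox2 -0.094, Sod1 -0.066, Gstp1 -0.083. After quantile normalization they were Txndc9 -0.069, Glrx2 -0.079, Gss -0.11, Gstm5 -0.057, Prdx2 -0.031, Txnl4b -0.040, Gstt2 -0.15, Glrx5 -0.015, Txndc5 -0.0056, Txndc15 -0.034, Txn2 -0.0087, Hmox2 -0.049, Gstp1 -0.063. With 1 library left out the range was Glrx2 -0.025 to 0.069, Gss -0.026 to 0.12, Gstm5 -0.016 to 0.076, Gstp1 -0.0096 to 0.073, Gstt1 -0.17 to 0.089, Gstt2 -0.069 to 0.11, Hmox2 -0.010 to 0.057, Prdx2 -0.011 to 0.033, Txnl1 -0.053 to 0.043, Txnl4b -0.040 to 0.22. A p that misses the threshold does not show that a member does not differ.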
